A study of Mus musculus with 2 samples.

Results

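The expression of 10 genes of the lipid droplet and of triglyceride lipolysis was described in mouse liver: the perilipins Plin2, Plin3, Plin4 and Plin5, the CIDE genes Cidea, Cideb and Cidec, the lipases Pnpla2 and Mgll, and the lipase inhibitor G0s2. They were chosen by name for these functions, and 10 of 10 had a row among the 8551 genes of the deposited table. The series held 2 libraries, 1 per group. The normal library came from liver of wild type male C57BL/6 mice and the diabetic library from liver of male db/db mice, which the labels call type 2 diabetic and also place on C57BL/6. All mice were 9 weeks old, were otherwise untreated as far as the labels say, and livers were taken about 3 h into the light cycle. The db/db mouse carries a mutation of the leptin receptor gene Lepr in every cell, so the model joins obesity and diabetes, and neither can be told apart from the other or from the animals' origin. Whether RNA of several animals was pooled and which supplier provided each strain were not stated in the sources used here. Lepr had no row, so the group labels could not be checked by the mutated gene.

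Lipid droplets are stores of triglyceride and cholesterol ester enclosed by a phospholipid monolayer, and they fill hepatocytes in fatty liver. Perilipins coat the droplet and limit the access of lipases. CIDE proteins gather at contact sites between droplets and move lipid from the smaller to the larger one. In lipolysis, Pnpla2 (ATGL) removes the first fatty acid from a triglyceride with the help of its coactivator Abhd5 (CGI-58), G0s2 inhibits Pnpla2, and Mgll (monoglyceride lipase) releases the last fatty acid.

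The steps between the deposited values gave about 10278531 clean tags for the normal and 13508232 for the diabetic library, so that 1 tag was worth 0.0973 and 0.0740 TPM (tags per 1000000 clean tags). Since each transcript can yield at most 1 tag, these levels are not divided by transcript length, and because tag sites differ between genes they were compared between libraries and not between genes. A gene was called higher or lower with at least a 1.5-fold difference and a false discovery rate (FDR) under 0.001 in a two-sided exact binomial test of the tags, with Benjamini-Hochberg adjustment over 8551 genes. With 1 library per group this test compares the libraries and not the conditions, and no difference below has a replicate check. Intervals are 95% intervals that cover counting error only, with each tag counted as a separate molecule. Amplified tags that carry no molecular identifier may be copies of the same molecule, so the intervals may be too narrow. The liver label was met by the hepatocyte markers: 7 of 8 were listed, with a summed level of 21090 TPM in the normal and 22590 TPM in the diabetic library. As in any bulk tissue, fewer cells of a type and less RNA per cell cannot be told apart.

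Because the measurement counts a short tag next to a DpnII site (GATC), the tag decides which transcripts a value can stand for. The 20 bases from the last such site of the longest RefSeq-linked transcript are shown for 8 of the genes and for Abhd5. They are read 5′ to 3′ from the GENCODE M21 annotation on GRCm38, with the site in capitals. The tag length was assumed, and the reads themselves were not analysed here.
Plin2: GATCaggccaaacacttggg
Plin3: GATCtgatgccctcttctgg
Plin4: GATCtgacaggcccagcact
Plin5: GATCctgtccttacccccaa
Cideb: GATCctgcataccaacggcc
Cidec: GATCtggggggtcctcacct
G0s2: GATCacctaaggggtctggg
Mgll: GATCacagtgggtcactggt
Abhd5: GATCtcttaactatcattgg
On the minus strand of GRCm38 these lie at Plin2 chr4:86657277-86657296, Plin3 chr17:56277536-56277555, Plin4 chr17:56101426-56101445, Plin5 chr17:56111858-56111877, Cideb chr14:55754120-55754139, Cidec chr6:113424884-113424903 and G0s2 chr1:193272339-193272358, and on the plus strand at Mgll chr6:88828211-88828230 and Abhd5 chr9:122381461-122381480. The Plin2 tag is in coding sequence and the other 8 printed tags are in 3′ UTRs. Of the 9 droplet genes other than Pnpla2, the tags of 8 occurred as the last tag of no other gene, which also held for Abhd5. The exception was Plin3, whose last tag is also the last tag of 106 other genes, so its counts are uncertain as a measure of Plin3. Both RefSeq-linked Cidec transcripts share the printed tag, and its isoforms therefore could not be told apart. The Mgll tag occurred in 2 of 4 such transcripts.

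Between the libraries, 6 of the 10 genes were called higher in the diabetic library (Plin2, Plin3, Plin4, Cidea, Cidec and G0s2), 1 was called lower (Cideb) and 3 were not called (Plin5, Pnpla2 and Mgll). In the background, 22.9% of the 8551 genes were called higher and 8.19% lower. With the fold alone and no test, 7 of the 10 were at least 1.5-fold higher and 1 was lower, beside 34.4% and 15.3% of all listed genes. The median log2 ratio of diabetic over normal was 1.13 for the 10 genes and 0.25 for all listed genes. This background depends on the scaling: under TMM scaling, which takes the bulk of the genes as unchanged, 14.9% were called higher and 13.4% lower, and the higher share of all calls went from 73.6% to 52.5%. The same 7 calls of droplet genes were made under TMM and under the other 3 scalings tried. The table leaves out genes whose 2 values average below 1 TPM. Plin4, Cidea and Cidec were under 1 TPM in the normal library, so these 3 were listed only through their diabetic level. Of the 468 listed genes under 1 TPM in the normal library, 184 (39.3%) were called higher.

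**Figure D1:**
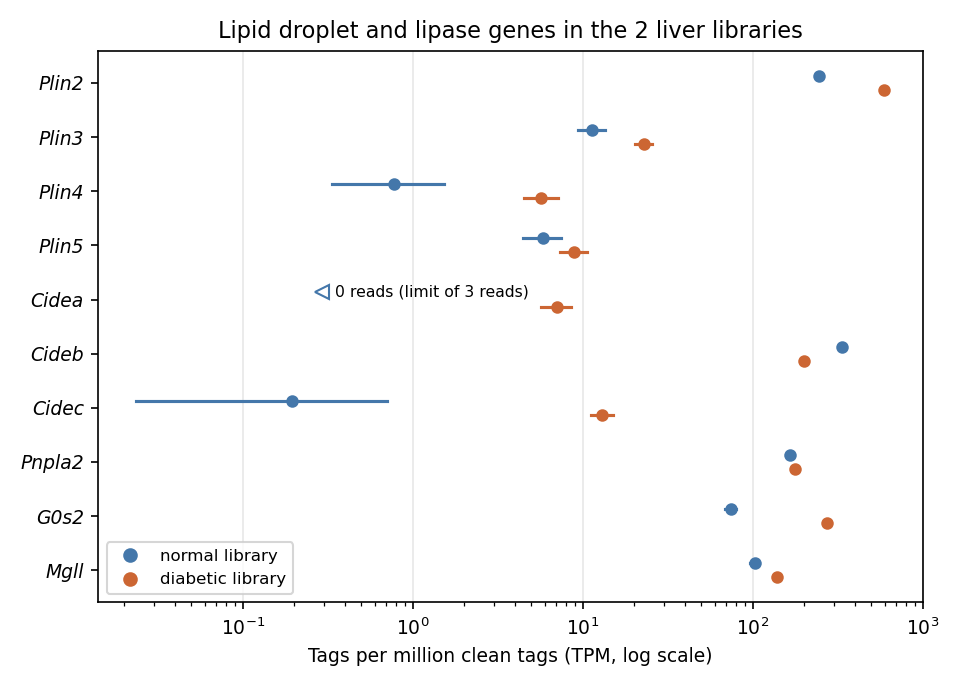
Level of each gene in the normal and the diabetic library, in TPM (tags per 1000000 clean tags) on a log axis, with exact Poisson 95% intervals as bars and the limit of 3 reads as an open triangle for Cidea. Only Cideb lies clearly to the left in the diabetic library (334.97 against 200.03 TPM), while Pnpla2 lies at 166.07 and 178.04 TPM.

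Perilipin tags as a sum were higher in the diabetic library, and Plin2 held nearly all of the family's tags in both libraries. Plin2 (adipophilin), the main droplet coat of hepatocytes, was at 247.21 TPM (2541 tags) in the normal and 592.23 TPM (8000 tags) in the diabetic library. This was a 2.40-fold difference [2.29 to 2.51], or 345.02 TPM, the largest gain in TPM of the 10 genes. Plin3 (TIP47), an exchangeable coat protein that moves between cytosol and droplet, was at 11.38 TPM (117 tags) and 22.87 TPM (309 tags), 2.01-fold higher [1.62 to 2.51] with FDR = 1.1e-10 in the exact binomial test. Its predicted tag is also the last tag of 106 other genes, so this difference is uncertain as one of Plin3.

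Plin4, a coat protein best known from white adipocytes, was nearly undetected in the normal library, with 8 tags (0.78 TPM), and had 77 tags (5.7 TPM) in the diabetic library. Its ratio was 7.31 [3.54 to 17.6] (FDR = 6.9e-11, exact binomial test). Plin4 is in the table only through its diabetic level, so its direction was fixed by the listing. Plin5, which joins droplets to mitochondria and binds Pnpla2 and Abhd5 in oxidative tissues, was at 5.84 TPM (60 tags) and 8.88 TPM (120 tags). The Plin5 ratio of 1.52 [1.11 to 2.11] passed the fold but not the test (FDR = 0.017, exact binomial test), and under TMM scaling it was 1.28. Plin1, the perilipin of mature adipocytes, had no row.

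Ratios of genes within a library do not depend on the scaling between libraries. Per Plin2 tag, Plin4 tags were 3.06 times as frequent in the diabetic as in the normal library [1.47 to 7.34]. Plin4 had 8 normal tags and was listed only through its diabetic level, which favours a higher ratio and share there. Plin5 tags were 0.635 times as frequent per Plin2 tag [0.461 to 0.884]. For Plin3 the interval held 1, at 0.839 [0.673 to 1.05]. The perilipin tags together went from 265.2 to 629.7 TPM, 2.37-fold [2.27 to 2.48]. Plin2 made up 93.2% and 94.1% of them, Plin3 4.29% and 3.63%, Plin5 2.20% [1.71 to 2.82] and 1.41% [1.18 to 1.68], and Plin4 0.293% [0.149 to 0.578] and 0.905% [0.725 to 1.13], with Wilson intervals. These are shares of tags, not of transcripts or protein.

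**Figure D2:**
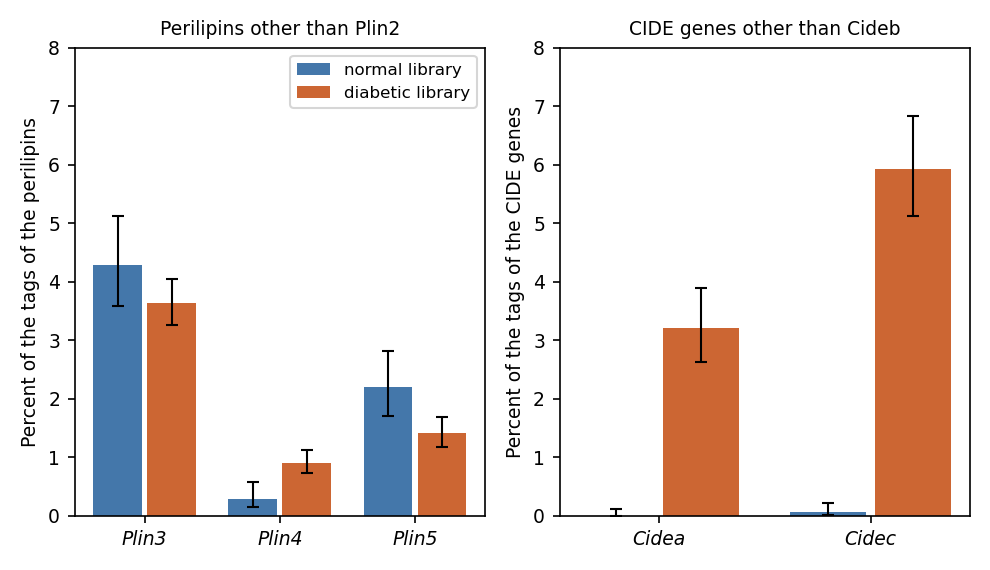
Share of the minor family members in the tags of their family, in percent, for the perilipins other than Plin2 and the CIDE genes other than Cideb, as bars for the normal and the diabetic library with Wilson 95% intervals. Plin4 goes from 0.293% to 0.905% of perilipin tags, and Cidec and Cidea together from 0.0581% to 9.12% of CIDE tags. Plin4, Cidec and Cidea were listed only through their diabetic level, which favours a higher share in that library.

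The CIDE genes differed in direction between the libraries, but for Cidec and Cidea the direction was fixed by the listing. Cideb, the CIDE gene of hepatocytes, which acts in the loading of lipid onto very low density lipoprotein, was at 334.97 TPM (3443 tags) in the normal and 200.03 TPM (2702 tags) in the diabetic library. Its ratio was 0.597 [0.568 to 0.628], with FDR = 7.5e-89 in the exact binomial test, and it was the only one of the 10 genes called lower. Under TMM scaling Cideb was 2.00-fold lower.

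Cidec (Fsp27) and Cidea, which are known from white and brown adipocytes and drive the growth of large droplets there, were near or at 0 in the normal library. Cidec had 2 tags (0.19 TPM) in the normal and 176 tags (13.03 TPM) in the diabetic library. The ratio was 68.6 with an interval of 18.3 to 557 (FDR = 3e-39, exact binomial test). Cidea had 0 tags in the normal library, which allows up to 0.292 TPM at a limit of 3 tags, and 95 tags (7.03 TPM) in the diabetic library. Set against that limit Cidea was 24.1-fold higher (FDR = 6.3e-23, exact binomial test), and 20.2-fold under TMM scaling, and the 95% counting interval of its ratio ran from 19.2 upward. Both genes are in the table only through their diabetic level, so their direction was fixed by the listing, and the size of their ratios is poorly determined. A pseudocount of 1 TPM lowered the log2 ratio of Cidec from 6.10 to 3.56 and that of Cidea from 4.59 to 3.00. With a pseudocount of 0.1 TPM, Cidec was lowered to 5.50 and Cidea was raised to 6.16.

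Compared with Cideb in the same library, Cidec tags were 112 times as frequent in the diabetic library [30.5 to 934], and for Cidea the interval of this ratio ran from 32.1 upward. Compared with Plin2, Cidec tags were 27.9 times as frequent [7.61 to 233]. The direction of these ratios was likewise fixed by the listing, and their size rests on 2 normal tags of Cidec and 0 of Cidea. All CIDE tags together went down from 335.2 to 220.1 TPM, a ratio of 0.657 [0.625 to 0.690], since Cideb was lower by 134.94 TPM while Cidec and Cidea reached 20.06 TPM together. Cideb made up 99.9% of CIDE tags in the normal and 90.9% [89.8 to 91.9] in the diabetic library. Cidec rose from 0.0581% [0.0159 to 0.211] to 5.92% [5.13 to 6.83], and Cidea from 0 of 3445 tags to 3.20% [2.62 to 3.89].

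**Figure D3:**
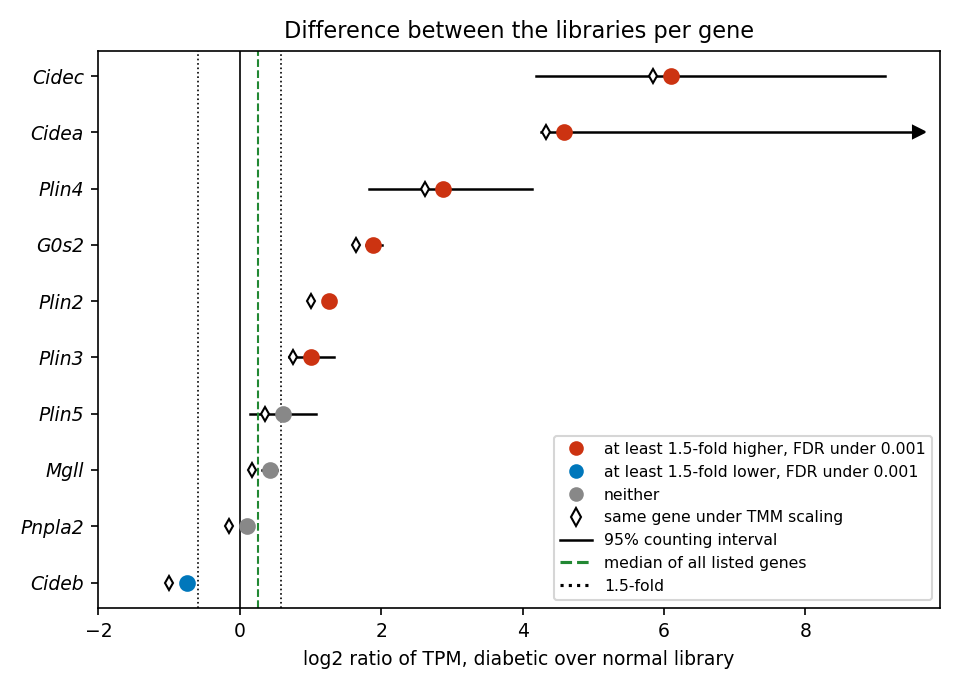
The log2 ratio of diabetic over normal TPM for each gene, with 95% counting intervals as bars, an arrow for the open interval of Cidea, diamonds for TMM scaling, dotted lines at 1.5-fold and a dashed line at the median of all listed genes (0.25). Cidec (6.10) and Cidea (4.59 against the limit of 3 tags, interval from 4.26) stand highest, Pnpla2 (0.10) lies below the median of all genes, and Cideb (-0.74) is below 0.

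For the genes of lipolysis, the level of the lipase Pnpla2 was similar in both libraries, while those of its inhibitor and its coactivator moved apart. Pnpla2 was at 166.07 TPM (1707 tags) in the normal and 178.04 TPM (2405 tags) in the diabetic library, a ratio of 1.07 [1.01 to 1.14] that was not called (FDR = 0.051, exact binomial test). Its direction turned with the scaling: all 4 other scalings gave a log2 ratio below 0, from -0.21 to -0.15. G0s2, the inhibitor, was at 74.23 TPM (763 tags) and 275.39 TPM (3720 tags), 3.71-fold higher [3.43 to 4.02] with FDR = 3.5e-304 in the exact binomial test. Abhd5, the coactivator, was at 39.79 TPM (409 tags) and 15.77 TPM (213 tags), 2.52-fold lower with FDR = 1.8e-28 in the exact binomial test. Abhd5 is not one of the 10 genes and is given because it acts on Pnpla2.

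Within each library, G0s2 was counted 0.447 times per Pnpla2 tag in the normal and 1.55 times in the diabetic library, a 3.46-fold difference [3.13 to 3.83]. Abhd5 was counted 0.240 and 0.0886 times per Pnpla2 tag, 2.70-fold lower in the diabetic library [2.26 to 3.24]. These ratios hold under any scaling between the libraries. G0s2 also differed from Plin2, with 1.55 times as many tags per Plin2 tag in the diabetic library [1.41 to 1.70]. Mgll, which completes lipolysis and also degrades the endocannabinoid arachidonoylglycerol, was at 103.32 TPM (1062 tags) and 138.36 TPM (1869 tags). The Mgll ratio of 1.34 [1.24 to 1.45] exceeded counting error (FDR = 1.1e-13, exact binomial test) but stayed under the 1.5-fold threshold, and TMM scaling reduced it to 1.12. Per Pnpla2 tag, Mgll was 1.25-fold higher [1.13 to 1.38].

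Of the other genes of lipolysis and lipases, 16 were listed, of which 5 were called higher, 4 lower and 7 neither, beside 22.9% and 8.19% of all genes, with a median log2 ratio of 0.18 beside 0.25 for all genes. The 5 higher genes were Abhd6 (5.64 to 18.14 TPM), a monoglyceride lipase, Pnpla3 (4.77 to 14.36 TPM), a relative of Pnpla2 whose protein sits on droplets, Lipa (49.13 to 96.02 TPM), the lysosomal acid lipase, and the carboxylesterases listed as Ces3 and Ces1. Ces3, now named Ces1d, a hydrolase of stored triglyceride in hepatocytes, went from 408.81 to 932.25 TPM, and Ces1, now named Ces1g, from 165.98 to 297.3 TPM. Carboxylesterase genes are close paralogs, and whether tags shared between them were split was not stated. The 4 lower genes were Abhd5, Faah (95.54 to 51.15 TPM), which hydrolyses fatty acid amides, Lpl (15.57 to 9.18 TPM) and Lipc (281.36 to 167.38 TPM). Lpl and Lipc are the lipases that act on plasma lipoproteins. The log2 ratios of these called genes ran from -1.34 for Abhd5 to 1.69 for Abhd6. None of the 9 calls changed under TMM scaling, where 14.9% of all genes were called higher and 13.4% lower.

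Neither call was made for Lipe (8.76 and 9.77 TPM), the hormone-sensitive lipase that follows Pnpla2 in adipocytes, nor for Aadac (592.69 and 684.1 TPM), Pnpla7 (364.35 and 350.97 TPM), Daglb, Pnpla6 and Pnpla8. Hilpda, a further inhibitor of Pnpla2 listed as 2310016C08Rik, had 13 and 38 tags, a ratio of 2.23 [1.16 to 4.55] with FDR = 0.021 in the exact binomial test. Its direction was that of G0s2, but its FDR was above the threshold.

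**Figure D4:**
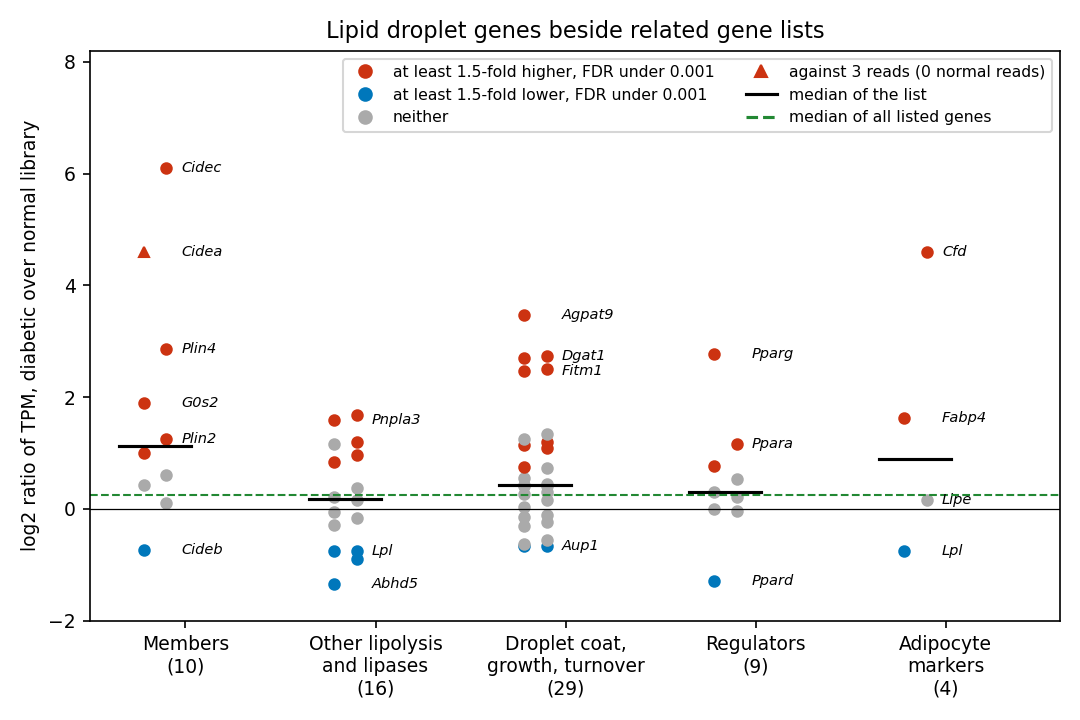
The log2 ratio of diabetic over normal TPM for the 10 droplet genes (Members), the other lipolysis genes, genes of droplet coat, growth and turnover, their regulators and the listed adipocyte markers, with black bars at list medians and a dashed line at the median of all genes. Called genes are colored by direction, and the triangle marks Cidea against the limit of 3 tags. Medians are 1.13, 0.18, 0.43, 0.30 and 0.90, beside 0.25 for all genes. Some genes, among them Plin4, Cidea, Cidec and Cfd, were listed only through their diabetic level, which can lift the median of a short list.

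Among 29 listed genes of droplet coat, growth and turnover, 9 were called higher, 2 lower and 18 neither, beside 22.9% higher and 8.19% lower of all genes, with a median log2 ratio of 0.43. The highest ratios were those of Agpat9, now Gpat3, which starts glycerolipid synthesis (8 and 117 tags, log2 ratio 3.47), Dgat1, which makes triglyceride (28 and 245 tags, 2.74), and the autophagy gene Atg7 (5 and 43 tags, 2.70). Agpat9, Atg7, Rab7 (called higher) and Lpin2 (not called) were under 1 TPM in the normal library, so they were listed only through their diabetic level. At the other end were Aup1 (507 and 420 tags, -0.67) and Osbpl2 (314 and 261 tags, -0.66), both called lower, and Lss of sterol synthesis (82 and 70 tags, -0.62), which was not called. Fitm1, which helps droplets form at the endoplasmic reticulum, went from 27.73 to 153.91 TPM and Dgat2, which catalyses the same step as Dgat1, was at 285.74 and 421.82 TPM, a ratio of 1.48 just under the threshold. Fitm1 and Dgat2 were singled out after their values were seen. Under TMM scaling 8 were called higher and 3 lower, beside 14.9% and 13.4% of all genes, with different calls for Hsd17b11 and Lss.

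Of 9 listed regulators, 3 were called higher, 1 lower and 5 neither, beside the same 22.9% and 8.19%, and under TMM scaling 2 were higher and 1 lower, beside 14.9% and 13.4%. Pparg, the adipocyte nuclear receptor, went from 7.59 TPM (78 tags) to 51.75 TPM (699 tags). Its ratio was 6.82 [5.39 to 8.73] with FDR = 1.3e-90 in the exact binomial test. Whether Pparg acts on the droplet genes here was not tested. Ppara, the receptor of hepatic fatty acid oxidation, went from 36.58 to 82.1 TPM, and Creb3l3 from 39.6 to 67.29 TPM, a call that was lost under TMM scaling. Ppard was lower (13.52 and 5.55 TPM). Insr, the insulin receptor, and Nr1h3, the liver X receptor alpha, had ratios of 1.00 and 0.974.

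Since PPAR receptors were among the genes that differed, the promoters were searched for their element. The 250 bases before each start in the RefSeq table of GRCm38.p6 were read on both strands for AGGTCANAGGTCA, a direct repeat of a 6-base site with 1 base between, with up to 2 mismatches among 12 bases. Of 12 promoters of 9 of the 10 genes, 1 held a match, that of Plin2, as did 3.24% of all 32851 promoters. Cidea was not among the genes searched. The Plin2 promoter lies on the minus strand at chr4:86670060-86670309, with the match, which reads on the opposite strand, in capitals.
Plin2: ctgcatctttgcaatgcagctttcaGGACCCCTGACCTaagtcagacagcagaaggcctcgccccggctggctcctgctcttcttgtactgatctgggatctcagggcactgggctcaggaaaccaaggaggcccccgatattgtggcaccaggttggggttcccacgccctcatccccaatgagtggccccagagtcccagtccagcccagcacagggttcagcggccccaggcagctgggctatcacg
The match lay 225 to 213 bases before the start and had 2 mismatches. A match of letters is no measured binding site, and its absence from the other windows says only that these letters are not in them.

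Markers of other cell types were read beside these results, and beside the 22.9% of all genes called higher and 8.19% called lower. Of 11 adipocyte markers, 4 were listed. Fabp4 (8.56 and 26.58 TPM) and Cfd (0.49 and 11.84 TPM) were called higher, Lpl was called lower and Lipe was not called, with a summed level of 33.37 TPM in the normal and 57.37 TPM in the diabetic library. Adipoq, Lep, Plin1, Retn, Slc2a4, Adig and Aoc3 had no row, which in this table means a mean under 1 TPM or a gene not counted. Of these 4, Cfd was, like Cidea, Cidec and Plin4, under 1 TPM in the normal library and listed only through the diabetic one. The part of adipocytes in the values of the droplet genes was not tested. Fabp4 is also made by macrophages and endothelial cells.

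Of 7 listed Kupffer cell and macrophage markers, 4 were called lower (C1qa, C1qc, Emr1 and Csf1r) and 1 higher (C1qb, none higher under TMM scaling). The summed level was 322.5 and 190.3 TPM, and most of that difference was C1qa (176.48 and 50.71 TPM). C1qb was at 38.14 and 57.82 TPM, and neither Cd5l (64.7 and 62.92 TPM) nor Clec4f (1.46 and 1.11 TPM) was called. Stellate cell markers, with 7 of 9 listed, were 1 higher and 1 lower, at 111.1 and 153 TPM summed. Endothelial markers were 1 higher and 1 lower of 7, at 115.4 and 100.6 TPM. Of the hepatocyte markers, 1 was higher (Cps1, 130.27 and 316.7 TPM), 1 lower (Hnf4a, 96.8 and 46.19 TPM) and 5 neither. These marker counts stand beside 22.9% higher and 8.19% lower of all genes. Stellate cells store retinyl esters in droplets, and their part in the perilipin values was not tested.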

How the data were processed

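Liver RNA of normal and db/db mice was measured by digital gene expression, with 1 library per group, assigned from the labels. The authors isolated poly(A) RNA, cut the cDNA at DpnII sites, read the tags by Illumina 1G sequencing and compared clean tags with RefSeq. The submitters' processing notes name mm9; the aligner is not given in the sources used here. The deposited values, called TPM by the authors, are RPM values (tags of a gene per 1000000 clean tags), rounded to 2 decimals, with 0.01 for no tag and genes with a mean under 1 TPM left out. No column of values was unused.

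Whole tags were computed from the steps of these values and were whole for 8513 of 8513 values above the placeholder in the normal and 8536 of 8537 in the diabetic library, within 0.0051 TPM plus 5e-07 of the value. Fold changes used the deposited values, with no tag set to 3 reads. Tags of each gene were compared by an exact binomial test, two-sided, given the library totals, and adjusted by Benjamini-Hochberg over 8551 genes. Intervals are Clopper-Pearson for ratios, exact Poisson for levels, Wilson for shares and conditional exact for 10 gene pairs. The genes and lists were chosen with earlier results of these data known. Named were the 10 genes, all listed lipolysis genes, and of other lists the 3 highest and 3 lowest ratios with at least 10 reads in 1 library. Alternatives were the fold alone, a 2-fold threshold, a filter at a mean of 5 TPM, 4 scalings, and pseudocounts of 0.1 or 1 TPM. Scripts ran in Python 3.11.15 (matplotlib 3.10.9, pandas 2.3.3, scipy 1.17.1, numpy 2.4.6) and were tested on simulated data. Predicted tags and promoters come from GRCm38, the tag of Pnpla2 is not reported here, and no coordinate was carried between it and mm9.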

Additional observations from a re-analysis of the deposited data

How the results depend on the processing

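The 6 genes called higher and Cideb called lower were the same genes under the 4 scalings and both pseudocounts. With a minimum mean of 5 TPM, Plin4 and Cidea were filtered out and the other 4 (Cidec, G0s2, Plin2 and Plin3) were still called higher. At a 2-fold threshold 6 were higher and 0 lower, since Cideb differed by less than 2-fold as deposited. The fold alone added Plin5. Of 60 log2 ratios of the 10 genes under scalings and pseudocounts, 38 stayed within their counting interval, 22 moved beyond it and 0 reversed a called direction; the scalings lowered all ratios by 0.25 to 0.31 on the log2 scale.

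Over all genes, 1955 were called higher and 700 lower. Scaling to the sum of the listed genes gave 1249 and 1165, TMM scaling 1270 and 1147, median-ratio scaling 1135 and 1262, and upper-quartile scaling 1220 and 1183. The 2-fold threshold gave 1236 and 387, and the fold alone 2941 and 1310.

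The 2 planned tests with an assumed variation between samples were not run. No paired analysis was possible because each group held 1 library. At 8 tags or fewer in the normal library (Plin4, Cidec and Cidea), depth limits the size of the ratio, and no setting adds the missing variation between mice.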
